A study of Mus musculus with 4 samples.

Results

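The goblet cell and mucus genes followed here were Muc2, Tff3, Fcgbp, Clca1, Zg16, Agr2, Spink4, Atoh1, Spdef and Muc13, taken as a list of symbols and matched by Ensembl gene identifier to the deposited tables. All 10 were found among the 55487 genes listed, and all 10 were among the 17155 genes with enough counts to test. Mouse small intestinal (SI) organoids, which are self-renewing epithelial cultures grown from isolated crypts in IntestiCult medium, received a lentivirus that carried the miR-181a-5p mimic in one group and the miRNA mimic control in the other. Both groups went through selection in 2 µg/ml puromycin, so the controls also carried a lentiviral insert and had been exposed to the drug. RNA-seq was performed on 2 libraries of each group, here called control replicates 1 and 2 and mimic replicates 3 and 4 after the last digit of their titles, which the titles of the mimic libraries do not define. The purpose of the comparison was to find molecules through which miR-181a-5p acts on proliferation and differentiation of the intestinal epithelium. The sources do not say whether a group's libraries derive from separate transductions or animals, so p-values measure only the spread between these libraries, which may be technical. The level of the mature miRNA itself was not measured by these libraries.

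Goblet cells are the secretory cells of the intestinal epithelium that make the mucus layer. In the crypt, a progenitor that escapes Notch signaling expresses Atoh1, the transcription factor required for the goblet, Paneth and enteroendocrine lineages. Spdef, an ETS factor, then promotes maturation along the goblet path. Mature goblet cells fold, glycosylate and store the gel-forming mucin Muc2 and release it together with Fcgbp, Clca1, Zg16, Tff3 and other small secreted proteins.

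The libraries held 31104884 to 38111731 expected counts, and the 10 genes took 0.223% to 0.268% of them. Epithelial identity was present in every library, with the adhesion genes Epcam at 615 to 713 TPM (transcript abundance corrected for length and scaled to one total) and Cdh1 at 239 to 283 TPM. Of 12 markers of fibroblasts, muscle, blood and vessels, 3 had enough counts to test, and all 12 together summed to 2.76 to 7.54 TPM in a library. Goblet transcripts were abundant, with Spink4 and Tff3 at a mean of 428 and 340 TPM, whereas Clca1 averaged 1.64 TPM and the goblet products Retnlb and Best2 had 0 expected counts in every library, which says that they were not detectable at this depth. These are bulk libraries of mixed cell types, in which fewer goblet cells and less RNA per goblet cell cannot be told apart.

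The seed of the miRNA and the places where its reverse complement occurs in these genes are shown first, because the mimic in the treated group was of this miRNA. The mature miR-181a-5p of the mouse (RefSeq, GRCm38.p6) is encoded at chr1:137966468-137966490 and chr2:38852741-38852763, both on the plus strand, and capitals mark its seed, bases 2 to 8. The sequence of the lentiviral mimic itself was not used here.
mmu-miR-181a-5p: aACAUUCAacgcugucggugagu
The reverse complement of the seed, TGAATGT (a 7mer-m8 match), was looked for on the sense strand of GENCODE vM21 (GRCm38) transcripts. For each gene, the transcript with the longest 3' UTR was taken, and its 3' UTR and coding sequence were searched. For Muc2 that coding sequence, at 2770 bases, is part of a much longer mRNA. TGAATGT was found in the 3' UTR of 0 of the 10 genes, whose 3' UTRs ran from 93 bases in Spink4 to 1060 bases in Muc13. Of the 12913 tested genes with a 3' UTR of at least 50 bases, 19.1% held it. The shorter match GAATGT occurred in the 3' UTR of 1 of the 10 genes, Clca1, against 38% of the same 12913 genes. In coding sequence, Fcgbp held 2 copies of TGAATGT and the other 9 genes held none, against at least one copy in 10.4% of 13099 genes. The windows are printed with the match in capitals.
Fcgbp coding sequence, chr7:28094097-28094120, plus strand: gtgtgctgagggctgTGAATGTga
Fcgbp coding sequence, chr7:28102938-28102961, plus strand: ccctctttgttggcaTGAATGTca
Clca1 3' UTR, chr3:145004315-145004338, minus strand: ggactaacatcagcaaGAATGTgt
A match is a run of letters and not a measured site, and the absence of one in these windows says nothing of other windows. The shares over all genes were not matched for 3' UTR length, and the 3' UTR of Spink4 has only 93 bases. Whether a match or its absence bears on the changes given below was not tested.

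The 10 genes did not all lie in one direction between the groups. With edgeR (quasi-likelihood test, Benjamini-Hochberg adjustment over all tested genes), Spink4 alone passed an adjusted p of 0.05, and it was lower with the mimic. That is 1 of 10 genes, beside 3.57% of all tested genes, with 1.28% of tested genes passing in the higher direction and 2.29% in the lower. None of the 10 passed at a change of at least 2-fold, which 2.06% of tested genes did. At an unadjusted p below 0.05 the count was 5 of 10, with 3 higher and 2 lower, beside 24.8% of tested genes. The fitted log2 fold change was above 0 for 5 of the 10 genes and below 0 for the other 5, and its median was 0.03, beside -0.01 over all tested genes.

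The genes differed in how the 4 libraries lay. In normalized CPM (expected counts scaled by library total and TMM factor), both mimic libraries were above both controls for Atoh1, Spdef and Agr2, and both were below for Tff3, Spink4 and Muc13. Such separation was common in these libraries: 28.9% of tested genes were separated upward and 29.5% downward, 58.4% in all. Muc2, Fcgbp, Clca1 and Zg16 overlapped between the groups.

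**Figure D1:**
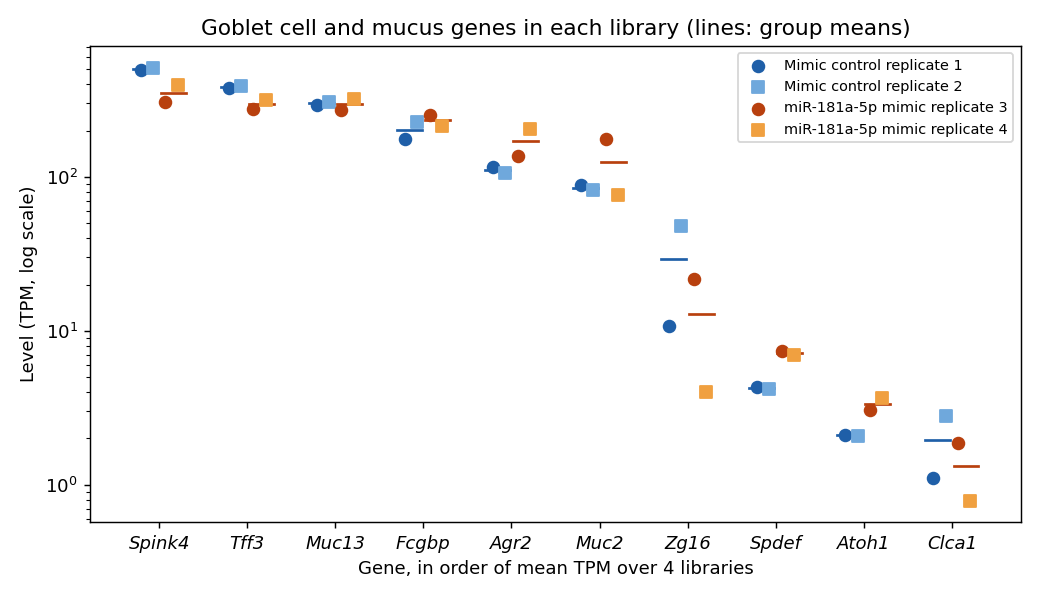
Level in TPM (log axis) of each of the 10 genes in the 4 libraries, with 1 point per library (controls blue, mimic red and orange) and lines at the group means. Spink4, Tff3 and Muc13 lie between 272 and 513 TPM while Clca1, Atoh1 and Spdef reach at most 7.37 TPM, and the points of Zg16 spread from 3.98 to 47.8 TPM across libraries of both groups.

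On the TPM scale, which corrects for transcript length and so allows genes to be compared, the mean levels of the 10 genes ran from 1.64 to 428 TPM. Spink4, a secreted serine protease inhibitor of goblet cells, was highest with a mean of 428 TPM over the 4 libraries, above 98.5% of tested genes. Tff3 followed at 340 TPM and Muc13 at 298 TPM. Their ranges over the libraries, 307 to 513 TPM for Spink4, 275 to 388 TPM for Tff3 and 272 to 321 TPM for Muc13, overlap. Within each library Spink4 was above Tff3, with a ratio of 1.12 to 1.32. The order of Tff3 and Muc13 was reversed in mimic replicate 4, at 318 and 321 TPM. Fcgbp had a mean of 218 TPM and its range, 175 to 254 TPM, lay below that of Muc13. Agr2 averaged 141 TPM and Muc2 106 TPM, and the ranges of Fcgbp and Agr2 and of Agr2 and Muc2 overlapped. Fcgbp was above Agr2 within each library, whereas Muc2 was above Agr2 in mimic replicate 3. Zg16 was lower at 21.1 TPM, above 69% of tested genes, its highest library stayed below the lowest of Muc2, and its lowest, at 3.98 TPM, lay below the range of Spdef. The transcription factors Spdef (5.72 TPM) and Atoh1 (2.73 TPM) and the secreted protein Clca1 (1.64 TPM) made up the low end, where the ranges of Atoh1 and Clca1 overlapped and those of Spdef and Atoh1 did not.

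Gene coordinates below are those of GENCODE vM21 on GRCm38. Atoh1, the basic helix-loop-helix factor that commits progenitors to the secretory fate (chr6:64729125-64731245, plus strand), had 138 and 110 expected counts in the controls and 163 and 205 in the mimic libraries. Each mimic library lay above each control, with a normalized level of 3.57 ± 0.0352 CPM against 5.48 ± 0.392 CPM (mean ± SD, n = 2 each). On the log2 scale the difference was 0.62 (SE 0.20, 95% interval 0.16 to 1.08), with an adjusted p of 0.117 by edgeR's quasi-likelihood test.

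Spdef (chr17:27714352-27728955, minus strand) lay the same way. It had 217 and 172 expected counts in the controls and 302 and 315 in the mimic libraries. The normalized level was 5.61 ± 0.0775 CPM in the controls and 9.25 ± 0.562 CPM with the mimic (n = 2 each), and the gap between the groups was larger than that between libraries of a group. Spdef had a log2 fold change of 0.72 (SE 0.17, 95% interval 0.33 to 1.11), the highest of the 10 genes, and its adjusted p by the quasi-likelihood test was 0.0613. DESeq2 and edgeR's exact test, run as alternatives on the same counts, put the adjusted p of Spdef at 0.0225 and 0.0147. They were the only 2 of 11 alternative settings with all libraries that called it. Limma fits to log2 TPM gave adjusted p-values of 0.124 to 0.314. The ratio of Spdef to Atoh1 in TPM was 2.06 and 2.00 in the controls and 2.42 and 1.90 in the mimic libraries, which overlap.

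Agr2, a protein disulfide isomerase of the endoplasmic reticulum that mucin folding requires (chr12:35992907-36004087, plus strand), had 2613 and 1905 expected counts in the controls and 2488 and 3909 in the mimic libraries. After scaling for depth, mimic replicate 4 was the highest and both mimic libraries exceeded the controls, at 64.8 ± 4.72 CPM against 94.6 ± 21.5 CPM (n = 2 each). Agr2 had a log2 fold change of 0.55 (SE 0.16, 95% interval 0.18 to 0.91) with an adjusted p of 0.0945 by the quasi-likelihood test. DESeq2 and edgeR's exact test gave adjusted p-values of 0.0273 and 0.0254. Agr2 passed in no other of the 11 alternative settings with all libraries, and limma fits to log2 TPM gave 0.205 to 0.389. Mimic replicate 4 carried much of the size, since the log2 fold change was 0.30 without it and 0.77 without mimic replicate 3, where the adjusted p by the quasi-likelihood test was 0.0181.

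Since the maturation factor and the folding enzyme lay in the same direction, their promoters are printed as 300-base windows around the annotated start (RefSeq, GRCm38.p6), with capitals on the one motif found in both, TTTATG or its reverse complement CATAAA, a core of sites bound by CDX factors. Promoter entries were matched for 6 of the 10 genes, and Tff3, Clca1, Zg16 and Spink4 were not among them. Both strands were searched for 4 motifs. Atoh1, which lay in the same direction, held none of the 4 in its promoter, which is not printed.
Spdef promoter, chr17:27728902-27729201, minus strand: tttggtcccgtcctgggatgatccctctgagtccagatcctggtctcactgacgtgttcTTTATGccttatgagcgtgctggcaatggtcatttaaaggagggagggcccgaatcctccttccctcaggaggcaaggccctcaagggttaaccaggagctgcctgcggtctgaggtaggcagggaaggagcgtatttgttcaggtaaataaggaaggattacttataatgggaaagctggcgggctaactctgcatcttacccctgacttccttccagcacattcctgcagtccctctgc
Agr2 promoter, chr12:35992675-35992974, plus strand: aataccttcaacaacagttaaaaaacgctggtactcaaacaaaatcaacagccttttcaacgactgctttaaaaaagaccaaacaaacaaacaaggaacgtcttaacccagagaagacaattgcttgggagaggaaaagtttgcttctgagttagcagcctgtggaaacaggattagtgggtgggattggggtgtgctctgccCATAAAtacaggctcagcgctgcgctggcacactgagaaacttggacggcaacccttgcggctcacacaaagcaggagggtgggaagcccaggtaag
TTTATG occurred in 3 of the 6 promoters, those of Spdef, Agr2 and Muc13, against 11.9% of 32851 promoters of the same length. Muc13 held the motif and did not lie higher with the mimic. The E-box CAGCTG occurred in 2 of the 6 promoters, Fcgbp and Muc2, against 16.3% of all. AGATAA, a core of sites bound by GATA factors, and TATAAA each occurred in 1 of the 6, Muc2, where a copy of each overlapped by 1 base, against 11.2% and 13.6% of all. Whether these motifs are bound or used in the organoids was not tested.

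**Figure D2:**
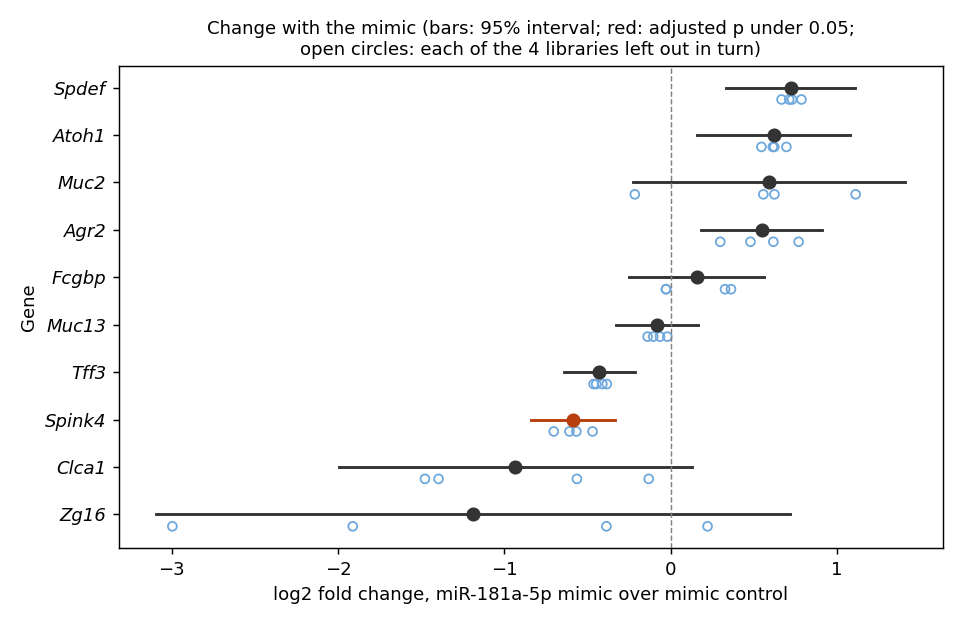
Log2 fold change of each of the 10 genes, mimic over control, as points with 95% intervals from edgeR's quasi-likelihood fit. The intervals of Spdef, Atoh1 and Agr2 lie above 0, those of Tff3 and Spink4 lie below 0, and that of Zg16, from -3.09 to 0.72, is the widest.

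Muc2 is the gel-forming mucin that gives intestinal mucus its structure (chr7:141690340-141754693, plus strand). Its expected counts were 3376 and 2585 in the controls and 5787 and 2613 in the mimic libraries. Mimic replicate 3 stood alone at the top and mimic replicate 4 was the lowest of the 4 libraries, so the groups overlapped, at 85.7 ± 3.28 CPM against 129 ± 78.8 CPM (n = 2 each). Its log2 fold change of 0.59 (SE 0.35, 95% interval -0.23 to 1.41, adjusted p 0.334 by the quasi-likelihood test) was within the spread between replicates. The gene turned on 1 library, with a log2 fold change of -0.22 without mimic replicate 3 (adjusted p 0.593) and 1.11 without mimic replicate 4 (adjusted p 0.00115). Muc2 is annotated as 8 transcripts of 241 to 2926 bases, fragments of a much longer mRNA, so its TPM rests on an incomplete gene model.

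Fcgbp, a large secreted protein of the mucus gel (chr7:28071236-28120862, plus strand), had 41264, 43390, 48493 and 42993 expected counts in control replicates 1 and 2 and mimic replicates 3 and 4. Control replicate 1 was the lowest and mimic replicate 3 the highest once depth was scaled, and the groups overlapped, at 1238 ± 229 CPM against 1378 ± 241 CPM (n = 2 each). Fcgbp, which held the most counts of the 10 genes, had a log2 fold change of 0.15 (SE 0.18, 95% interval -0.25 to 0.56, adjusted p 0.620 by edgeR), which is within the spread between replicates. Its expected counts and those of Muc13 were not whole numbers in any of the 4 libraries and are printed rounded.

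Clca1, a secreted metalloprotease of mucus (chr3:145003817-145032776, minus strand), had 126, 257, 121 and 77 expected counts in the same order of libraries. Control replicate 2 was the highest and the groups overlapped, at 5.79 ± 3.54 CPM against 3.01 ± 1.20 CPM (n = 2 each). Clca1 had a log2 fold change of -0.93 (SE 0.46, 95% interval -2.0 to 0.13, adjusted p 0.250 by the quasi-likelihood test), and it was -1.48 with an adjusted p of 0.0319 without control replicate 1 and -0.13 without control replicate 2. The effective length behind its TPM also differed between libraries, by 1.46 times from lowest to highest against 1.02 to 1.06 times for the other 9 genes, so its differences between libraries were not of the same size in CPM and in TPM.

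Zg16, a lectin-like protein that binds bacteria in mucus (chr7:127050156-127087328, minus strand), had 192 and 676 expected counts in the controls and 318 and 59 in the mimic libraries. In TPM these were 10.7, 47.8, 21.9 and 3.98, with each group spanning a large part of the whole range. The mean was 13.4 ± 11.9 CPM in the controls and 5.91 ± 6.01 CPM with the mimic (n = 2 each). For Zg16 the log2 fold change of -1.19 (SE 0.82, 95% interval -3.09 to 0.72) had an adjusted p of 0.403 by the quasi-likelihood test, became 0.22 without control replicate 2 and was -3.00 with an adjusted p of 0.0350 without mimic replicate 3.

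Zg16 varied more between libraries of the same group than nearly all other genes. Its normalized level differed 4.36-fold between the controls, a gap matched or exceeded by 0.676% of tested genes, and 6.13-fold between the mimic libraries, matched or exceeded by 0.496%. Clca1 differed 2.52-fold between the controls and 1.79-fold between the mimic libraries, which 2.23% and 7.37% of tested genes matched. Muc2 differed 1.06-fold between the controls and 2.52-fold between the mimic libraries, the latter matched by 2.73% of tested genes. By contrast, the libraries of a group were within 1.02-fold in the controls and 1.17-fold in the mimic group for Tff3, Spink4, Atoh1, Spdef and Muc13.

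Zg16 and Clca1 shared the order of the 4 libraries, control replicate 2, then mimic replicate 3, control replicate 1 and mimic replicate 4. That order was found for 337 of 17155 tested genes (1.96%). Among 15 enterocyte genes it was found for Alpi and Fabp2, named here after their values were seen. The ratio of Zg16 to Clca1 in TPM was 9.66 and 17.2 in the controls and 11.8 and 5.04 in the mimic libraries, so the sharing was in order rather than in size.

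**Figure D3:**
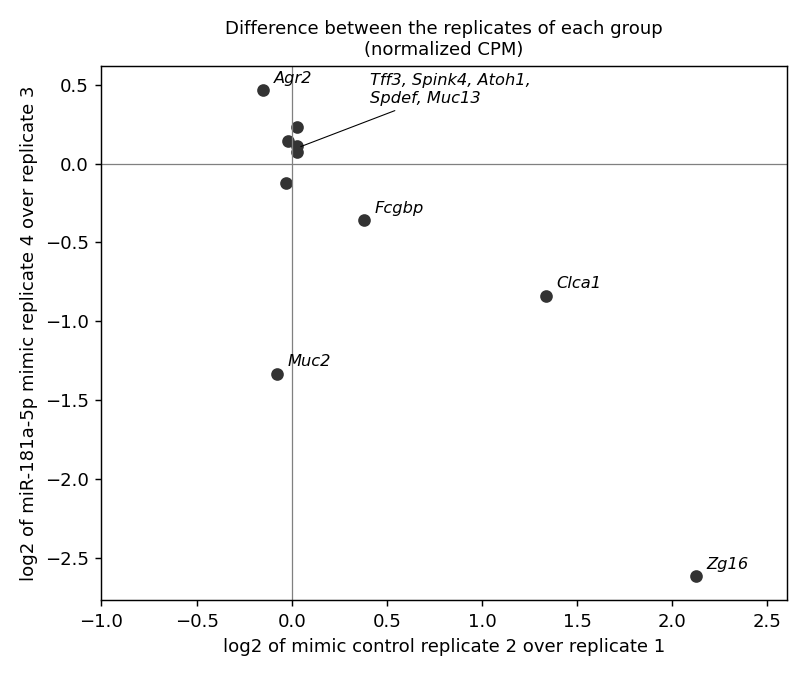
Log2 ratio in normalized CPM between the libraries of each group, for the 10 genes. The horizontal axis is control replicate 2 over replicate 1 and the vertical axis is mimic replicate 4 over replicate 3. Zg16 shows the largest gap in both groups, at 2.1 between the controls (4.36-fold) and -2.6 between the mimic libraries (6.13-fold). Tff3, Spink4, Atoh1, Spdef and Muc13 lie near 0 on both axes.

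The small secreted peptides lay the other way. Spink4 (chr4:40920052-40931395, plus strand) had 4832 and 3988 expected counts in the controls and 2443 and 3255 in the mimic libraries. Both mimic libraries were below both controls and the controls were nearly equal, at 127 ± 1.88 CPM against 84.7 ± 9.50 CPM (n = 2 each). With the mimic, Spink4 fell by 33.5%, a log2 fold change of -0.59 (SE 0.11, 95% interval -0.84 to -0.34), with an adjusted p of 0.0353 by edgeR's quasi-likelihood test.

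The call for Spink4 was held in 7 of 11 alternative settings that kept all libraries and in 3 of 4 that left one out, with the log2 fold change between -0.60 and -0.53 in the former. It was lost without mimic replicate 3 (log2 fold change -0.47, adjusted p 0.171), without the filter on low counts (adjusted p 0.102), and in the 3 fits of limma to log2 TPM (adjusted p 0.167 to 0.330). The direction was the same in all 15.

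Tff3, the trefoil peptide that goblet cells secrete with mucin and that aids epithelial repair (chr17:31125306-31129646, minus strand), had 4852 and 3991 expected counts in the controls and 2892 and 3462 in the mimic libraries. Both mimic libraries were lower, and libraries of a group were close, at 128 ± 1.58 CPM against 94.8 ± 3.47 CPM (n = 2 each). Tff3 had a log2 fold change of -0.43 (SE 0.09, 95% interval -0.64 to -0.22), and its adjusted p of 0.0511 by the quasi-likelihood test was just over the threshold. Tff3 passed with DESeq2 (adjusted p 0.00894), with edgeR's exact test (0.00898) and with at least 10 counts required in every library (0.0449). It passed in only these 3 of 11 alternative settings with all libraries. Limma fits to log2 TPM gave adjusted p-values of 0.199 to 0.333.

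Spink4 and Tff3 differed in TPM ratio against each other and against the folding enzyme. The ratio of Spink4 to Tff3 was 1.32 in both controls and 1.12 and 1.24 in the mimic libraries. The ratio of Spink4 to Agr2 was 4.29 and 4.83 in the controls and 2.26 and 1.92 in the mimic libraries. The ratio of Tff3 to Fcgbp was 2.15 and 1.70 in the controls and 1.08 and 1.47 in the mimic libraries. Each of these ratios was lower in both mimic libraries than in both controls, whereas the ratio of Muc2 to Fcgbp, 0.506 and 0.359 in control libraries and 0.692 and 0.352 in mimic libraries, overlapped. No p-value is attached to these ratios, whose genes were chosen after their values were seen.

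Muc13 is a transmembrane mucin of the apical surface, found on enterocytes as well as goblet cells (chr16:33794037-33819934, plus strand). It had 27300 and 22514 expected counts in the controls and 20402 and 25101 in the mimic libraries, and the normalized level was 719 ± 10.2 CPM against 678 ± 38 CPM (n = 2 each). Its log2 fold change was -0.08 (SE 0.11, 95% interval -0.33 to 0.16, adjusted p 0.655 by edgeR), the smallest in size of the 10 genes. In normalized CPM both mimic libraries lay below both controls, and in TPM, at 295, 305, 272 and 321 for the same libraries, they did not. An exon of Muc13 overlaps an antisense gene, Gm15657, and the sources used here do not state whether counting used strand.

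Paneth cells are the other abundant secretory type of the SI crypt, and their genes are given beside Spink4 and Tff3. Of 12 tested Paneth cell genes, 10 had a fitted log2 fold change below 0 and 2 above, with a median of -0.64. Over all 17155 tested genes, 8822 were below 0. In normalized CPM, both mimic libraries were below both controls for 3 of the 12, beside 29.5% of all tested genes. For Defa17 and Defa24, control replicate 1 stood alone at 199.6 and 206.5 CPM. Control replicate 2, at 67.3 and 74.16 CPM, was below both mimic libraries for these genes. Similar Defa copies can share reads, so their counts are uncertain. None of the 12 was called by edgeR's quasi-likelihood test, beside 3.57% of all tested genes. At an unadjusted p below 0.05 by that test were 4 of the 12, all lower, beside 2222 of the 17155 that were lower. DESeq2 and the exact test called 1 each, beside 1322 and 1788 of the 17155. The number of Paneth cell calls rose without control replicate 2 or without mimic replicate 4, each a fit with 1 library in a group. The number over all tested genes also rose, by a smaller share. The summed level of the Paneth cell genes was 2383 and 1233 TPM in the controls and 1283 and 1593 TPM in the mimic libraries. These values overlap, so the sum did not follow the order of Spink4 and Tff3 library by library. The part of the Paneth cell genes in the result for these peptides was not tested.

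The wider goblet programme was also mixed. Of 30 further goblet genes, 28 were tested, with 15 fitted changes above 0 and 13 below. The quasi-likelihood test called 3 (10.7%), beside 3.57% of all tested genes: Kcnk6 and Ttc39a rose and Hgfac fell. DESeq2 called 6, beside 1322 of all 17155 tested genes, and limma on TPM called 0. Kcnk6, a potassium channel, had 58 and 48 expected counts without and 177 and 173 with the mimic, a log2 fold change of 1.78 (SE 0.23, adjusted p 0.0137 by edgeR). Ttc39a had 156 and 177 against 419 and 440 expected counts (log2 fold change 1.40, SE 0.20, adjusted p 0.0168 by edgeR). The 2 genes of this list with the highest TPM, the peptide hormone precursor Guca2a and the tetraspanin Tspan13, had log2 fold changes of 0.38 and 0.16 that did not pass (adjusted p 0.177 and 0.346 by edgeR). Hgfac, a secreted protease that activates hepatocyte growth factor, had 667 and 534 expected counts in control libraries and 166 and 315 in mimic libraries. Its log2 fold change was -1.29 (SE 0.23, adjusted p 0.0336 by edgeR).

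Of 17 other regulators of secretory lineage, none was called by edgeR's quasi-likelihood test (adjusted p below 0.05). At an unadjusted p below 0.05 by that test were 6 of the 17, all 6 higher, beside 2028 of all 17155 tested genes that were higher. DESeq2 and the exact test each called 3, beside 1322 and 1788 of the 17155. The list had 11 fitted changes above 0 and 6 below and a median log2 fold change of 0.16. Klf5, a factor of proliferating crypt cells, was at 138 ± 1.41 TPM against 185 ± 3.55 TPM (log2 fold change 0.37, adjusted p 0.0936 by edgeR), and Xbp1, the secretory stress factor, at 159 ± 4.94 TPM against 144 ± 19.5 TPM (log2 fold change -0.19, adjusted p 0.309).

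Among 21 further mucin, trefoil, Clca and Agr genes, 12 were tested and 1, Muc4, was called. The list had 4 calls with DESeq2 and with the exact test, beside 1322 and 1788 of all 17155 tested genes. Leaving out control replicate 2, which leaves 1 control library, raised the share of the list called by more than the share over all tested genes. It had 0 calls without the filter on low counts and in the 3 limma fits, where the call for Muc4 was thus lost. Muc4, a transmembrane mucin, had 3064 and 2736 expected counts in control libraries, 675 and 1285 in mimic libraries, and fell by 1.54 on the log2 scale (SE 0.22, adjusted p 0.0165 by edgeR), from 11.2 ± 0.502 to 3.87 ± 0.948 TPM. Its ratio to Muc13 in TPM was 0.0369 and 0.0380 in the controls and 0.0118 and 0.0142 in the mimic libraries. The family members with the highest TPM, Clca4b and Clca3b, had log2 fold changes of -0.07 (adjusted p 0.802) and 0.62 (adjusted p 0.0980) by edgeR, and near-identical Clca copies can share reads, so their counts are uncertain.

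The genes that process mucins had more fitted changes above 0 than below, and the number called depended on the test and the libraries. Of 28 tested mucin O-glycosylation genes, 17 had fitted changes above 0 and 11 below (median 0.09), beside 8333 above 0 among all 17155 tested genes. The quasi-likelihood test called 1, Galnt10, which rose. That is 3.571% of the list, beside 3.567% of all tested genes. Galnt10, an enzyme that starts O-glycan chains, had 842 and 797 expected counts against 1111 and 1300 in mimic libraries (log2 fold change 0.60, SE 0.12, adjusted p 0.0470 by edgeR). DESeq2 called 5 genes of this list and the exact test 7, beside 1322 and 1788 of the 17155. Leaving out control replicate 2, which leaves 1 control library, raised the share of the list called by the quasi-likelihood test by more than the share over all tested genes. Leaving out control replicate 1 removed the call for Galnt10. Of 29 folding and secretory pathway genes, 24 had fitted changes above 0 and 5 below (median 0.29). The quasi-likelihood test called 1 of them (3.448%), Dnajc10, an endoplasmic reticulum disulfide reductase, which rose. It had 1707 and 1508 against 2000 and 2434 expected counts (log2 fold change 0.51, SE 0.10, adjusted p 0.0470 by edgeR). In this list 5 genes were called by DESeq2 and by the exact test, beside the same 1322 and 1788 over all tested genes. Leaving out control replicate 2, which leaves 1 control library, again raised the share of the list called by more than the share over all tested genes. Leaving out control replicate 1 or mimic replicate 3 removed the call for Dnajc10. The abundant genes of this list were Pdia3 and Hspa5, with log2 fold changes of 0.29 and 0.25 that did not pass (adjusted p 0.167 and 0.387 by edgeR). Both mimic libraries were above both controls for 19 of these 29 genes, beside 28.9% of all tested genes.

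**Figure D4:**
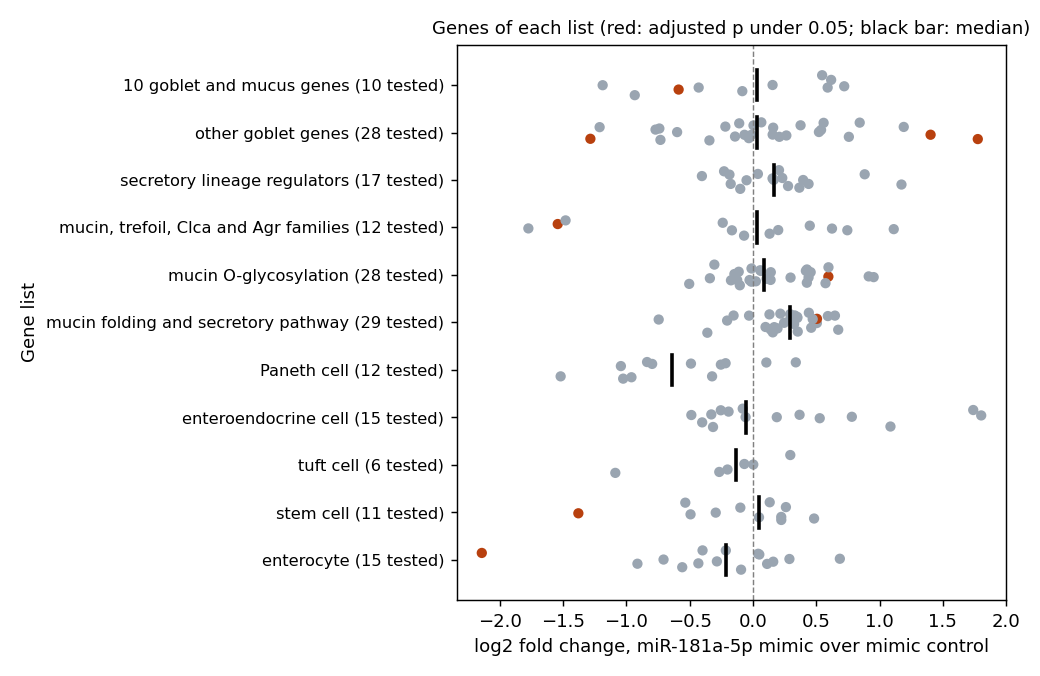
Log2 fold change, mimic over control, of each tested gene in the gene lists, with 1 point per gene (red where the adjusted p is under 0.05) and a black bar at the list median. The 10 goblet and mucus genes have a median of 0.03, the folding and secretory pathway genes of 0.29 and the Paneth cell genes of -0.64.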

How the data were processed

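A total of 4 libraries of mouse SI organoids were compared, 2 of each group. Per the labels and the study's methods, the authors trimmed reads with Trimmomatic and estimated expression with RSEM on GRCm38, and deposited expected counts per gene, which need not be whole and are not normalized, and TPM. Library preparation is given as poly(A) enrichment in the labels and as ribosomal RNA depletion in the supplemental methods. In all, 3 columns in each table matched no sample and were not used. Expected counts were rounded to whole numbers, filtered with filterByExpr (17155 genes kept), scaled by TMM factors and tested with edgeR 4.0.16 (R 4.3.3; glmQLFit with the current, non-legacy form, glmQLFTest). Benjamini-Hochberg adjustment ran over all genes tested, with a threshold of 0.05. The study's methods name edgeR and also ask for a 2-fold change, which was counted separately. The non-legacy form was taken to follow an earlier analysis of these data, after its results were known. SE values were the size of the log2 fold change divided by the square root of F. The common biological coefficient of variation was 0.13. Symbols were matched to 55141 of 55487 identifiers, and a symbol with several identifiers was read from its most counted one. Total counts were 31104884 to 38111731 per library. Alternatives were DESeq2 1.42.0, edgeR's exact test, other scaling and filters, limma 3.58.1 on log2(TPM + 1) or log2(TPM + 0.1), for genes that reached 1 TPM in 2 libraries, leaving out each library, and, chosen after seeing the data, edgeR's legacy and robust forms. Named genes were the 10 genes, and of each further list the genes past the threshold (up to 4, with a mean of at least 50 counts) and the 2 with the highest mean TPM. One gene that this rule names is not reported here. The 10 genes and the lists were chosen with earlier results of these data known. The fits were tested on simulated data before use. Figures were drawn with matplotlib 3.10.9.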

Additional observations from a re-analysis of the deposited data

How the results depend on the processing

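Each group had 2 libraries, and both the choice of test and leaving out 1 library moved the counts of calls. No paired analysis was possible because the groups share no replicate numbers, where those of the mimic libraries were read from the last digit of titles that do not say what it stands for. Of all tested genes, 612 were called, and the count was 1322 with DESeq2, 1788 with the exact test, 192 without a filter on low counts (where 29212 genes were tested), 75 with limma on log2(TPM + 1), 27 on log2(TPM + 0.1) and 2 with the first of these and no filter. Omitting 1 library gave 373 (without mimic replicate 3) to 2365 (without control replicate 2). Of the 10 genes, 1 was called, with 4 by DESeq2 and by the exact test (Tff3, Agr2, Spink4 and Spdef), 2 when at least 10 counts were required in every library (Tff3 and Spink4), and 0 without a filter and in each of the 3 limma fits. Leaving out any 1 library gave a lowest and highest count of 2 and 2, with Clca1 and Spink4 without control replicate 1, Tff3 and Spink4 without control replicate 2, Zg16 and Agr2 without mimic replicate 3, and Muc2 and Spink4 without mimic replicate 4. The median log2 fold change of the 10 ranged from -0.12 to 0.29 when 1 library was left out. Omitting 1 library turned the sign of Muc2 (-0.22 without mimic replicate 3 to 1.11 without mimic replicate 4), of Zg16 (-3.00 without mimic replicate 3 to 0.22 without control replicate 2) and of Fcgbp (-0.0294 without control replicate 1, -0.0286 without mimic replicate 3 and 0.36 without control replicate 2). The legacy and robust forms of the test, chosen after seeing the data, scaling by RLE factors and scaling by library totals alone each called Spink4 and no other of the 10. Tff3 was called in 3, Agr2 and Spdef in 2 and Atoh1 in 0 of the 11 settings that kept all libraries. In the wider lists, 0 genes were called in each limma fit, and Galnt10, Dnajc10, Muc4, Lgr5 and Cdx1 also lost their calls without a filter on low counts. Without control replicate 2, 7 further goblet genes were called in place of 3. The cause of these differences between tools was not tested.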

Other observations

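Stem cell and absorptive genes were measured in the same libraries. Of 11 stem cell genes, 1 was called by edgeR, Lgr5, the receptor that marks crypt base columnar cells, which was at 104 ± 15.5 TPM in the controls and 40.5 ± 19.2 TPM with the mimic (log2 fold change -1.38, SE 0.26, adjusted p 0.0369). The call for Lgr5 was lost with edgeR's robust form, without the filter on low counts and in the 3 limma fits. Olfm4, another gene of these cells, was at 262, 114, 191 and 271 TPM in control replicates 1 and 2 and mimic replicates 3 and 4, with no separation of the groups (log2 fold change 0.22, adjusted p 0.742 by edgeR). The ion transporter Slc12a2 was at 200 ± 16.0 TPM against 251 ± 19.0 TPM (log2 fold change 0.26, adjusted p 0.228 by edgeR). Of 15 enterocyte genes, 1 was called, the brush border peptidase Anpep, which fell from 552 ± 147 to 133 ± 41.8 TPM (log2 fold change -2.14, SE 0.23, adjusted p 0.00812 by edgeR). In the 3 limma fits 0 of these genes were called. Fabp1, an abundant fatty acid binding protein of enterocytes, had a log2 fold change of -0.91 (adjusted p 0.109 by edgeR).

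Of 15 enteroendocrine genes none was called by edgeR, with 7 fitted changes above 0 and 8 below. At an unadjusted p below 0.05 by that test were 4, all higher, beside 2028 of all 17155 tested genes that were higher. DESeq2 called 2 and the exact test 4, beside 1322 and 1788 of the 17155. The granin Chgb and the hormone Cck had log2 fold changes of -0.19 and -0.32 (adjusted p 0.566 and 0.433 by edgeR). The number of enteroendocrine calls rose without control replicate 2, a fit with 1 control library. The number over all tested genes also rose, by a smaller share. Of 12 tuft cell genes, 6 were tested and 0 were called by edgeR's quasi-likelihood test, DESeq2 or the exact test, with 0 at an unadjusted p below 0.05, and their summed level was 5.50 to 9.99 TPM in a library. In the Paneth cell list, the abundant genes Itln1 and Defa24 had log2 fold changes of 0.11 and -0.49 (adjusted p 0.699 and 0.470 by edgeR). Of 8 housekeeping and epithelial genes, 1 was called, the intestinal transcription factor Cdx1, which rose from 67.1 ± 3.31 to 97.1 ± 1.43 TPM (log2 fold change 0.47, SE 0.10, adjusted p 0.0477 by edgeR), while Gapdh and Actb had log2 fold changes of -0.11 and 0.08 (adjusted p 0.778 and 0.768). The call for Cdx1 was lost with edgeR's legacy form, without the filter on low counts, in the 3 limma fits, and without mimic replicate 3 or 4.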
